A study of Mus musculus with 8 samples.

Results

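Unmutated IgM cells of single-cell clones are B cells whose heavy chain is joined to IGHM and whose IGHV segment carried no mutation. Under the clone rule below, their receptor also had no mate among the cells of its genotype with exactly 1 heavy and 1 light chain. They were chosen by 3 measured values: the constant gene, the number of IGHV mutations and the size of the clone. Of 40603 paired cells (barcodes with exactly 1 heavy and 1 light chain) in the series, 7731 met all 3 conditions, 2829 of 18707 in wild-type (WT) and 4902 of 21896 in Dtx1 knockout (KO) libraries. A clone was defined by the same heavy V and J genes, the same light V and J genes, the same heavy CDR3 length and a CDR3 nucleotide identity of at least 0.85, over the 4 libraries of a genotype. As germline served the sequence from framework 1 to framework 3 that most distinct CDR3s of a V gene carried, over all 8 libraries. Because these values chose the cells, their shares, IGHV mutations, clone sizes and isotype are given as a description, with no test.

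The series compared receptors of mouse splenic germinal centre B cells with and without Dtx1, the gene of the E3 ubiquitin ligase Deltex-1. The WT group was labelled Dtx1+/+ and the KO group Dtx1-/-, with 4 libraries each, and all spleens were taken on day 10 after immunization. Cells were enriched with a peanut agglutinin MicroBead kit, sorted by flow cytometry and sequenced with a droplet B-cell receptor kit. The sources used here do not give strain, age, immunogen, sort gates, number of mice or the extent of the Dtx1 deletion. Dtx1 itself (chromosome 5, 120680203 to 120711867, mm10) gives no receptor contig, so the knockout was not checked here. The germinal centre label could not be checked either, since these data hold only receptor transcripts.

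In the germinal centre, B cells divide rapidly, and the enzyme AID introduces point mutations into the V segments of both receptor chains and can exchange IgM for a switched isotype. A naive follicular B cell that has not entered this reaction carries IgM and IgD, an unmutated receptor and, as a rule, a CDR3 of its own. A cell that has entered it recently can look the same in receptor data alone. In mice most B cells use a kappa light chain, and the smaller lambda locus offers few V genes and little junctional diversity.

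Libraries of a genotype were not independent repertoires. Each library held 3047 to 4090 paired clonotypes, and 684 to 992 of these were shared by any 2 libraries of the same genotype, against 5 to 13 for 2 libraries of different genotype. IGHV counts of the unmutated single cells differed by no more than sampling noise over the 4 libraries (chi-square p = 0.280 in WT and 0.643 in KO). Tests over libraries therefore compared 2 pools of cells, and their p-values measured only the spread between loadings of a pool. Depth differed between genotypes. WT libraries held 11666 to 12686 contigs and 754954 to 765119 UMIs (counted transcript molecules). KO libraries held 12875 to 14732 contigs and 883091 to 1155339 UMIs, without overlap with WT. Reads per library overlapped, at 32395632 to 42704324 in WT and 38381338 to 47934592 in KO. Of 998 pairs of paired cells in different libraries with the same barcode, 0 had the same heavy CDR3, and 347 of the pairs held an unmutated single cell.

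Unmutated single cells made up 15.6, 16.1, 14.7 and 14% of paired cells in WT replicates 1 to 4, from 757, 752, 678 and 642 cells. In KO replicates 1 to 4 they made up 23.2, 21.8, 21.9 and 22.7%, from 1285, 1246, 1225 and 1146 cells. The KO libraries all lay above the WT libraries, at 22.4 ± 0.66% (SD, n = 4) against 15.1 ± 0.96% (SD, n = 4). The 95% exact binomial interval (Clopper-Pearson, counting error only) was 13 to 15% in WT replicate 4, the lowest library, and 22.1 to 24.3% in KO replicate 1, the highest. With the KO pool reduced to the size of the WT pool, the expected shares were 15.1% in WT and 23.7% in KO. A larger pool lets more cells find a relative, so the reduction moved the KO share up.

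**Figure D1:**
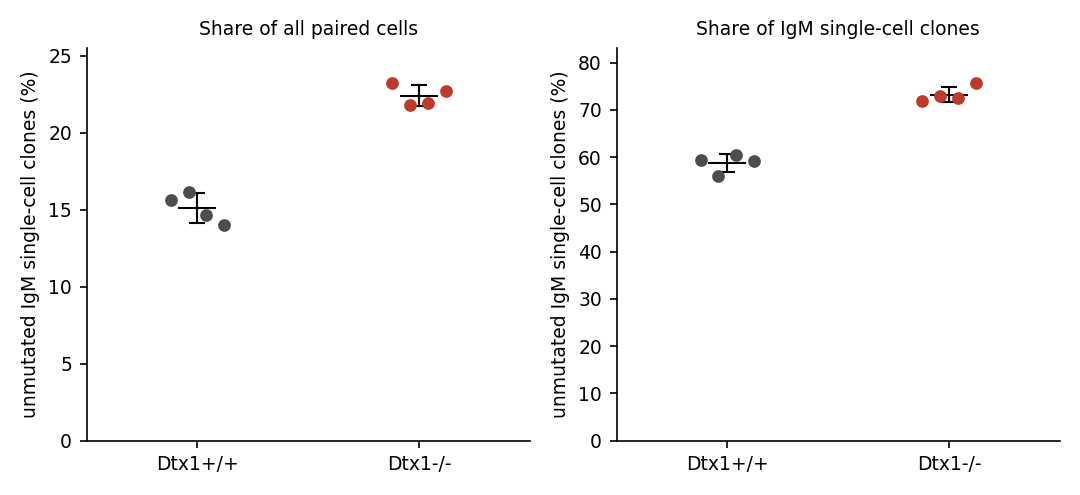
Share of unmutated IgM single-cell clones per library (y axis, percent, from 0), of all paired cells (left) and of IgM single-cell clones (right), for 4 Dtx1+/+ and 4 Dtx1-/- libraries. Points are libraries, horizontal bars are means and whiskers are SD; KO libraries span 21.8 to 23.2% of paired cells and WT libraries 14 to 16.1%.

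Among IgM cells that were alone in their clone, 56.0 to 60.5% were unmutated in WT and 71.9 to 75.6% in KO libraries (58.8 ± 1.95% and 73.2 ± 1.63%, SD, n = 4 each). Cells with exactly 1 IGHV mutation, just outside the rule, were 385 in WT (7.98% of IgM single-cell clones) and 507 in KO (7.57%). This share counts all IgM single-cell clones, so it is lowered where unmutated cells take up more of them, as in KO. Among mutated IgM single-cell clones alone, cells with 1 mutation were 385 of 1993 in WT and 507 of 1799 in KO, a larger part in KO. Unmutated IgM cells as a whole were distributed differently over clone sizes. Clones of 20 or more cells held 33.6% of them in WT and 17.6% in KO, and clones of exactly 2 held 5.34% and 10.6%.

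The other edge of the rule is CDR3 identity. A cell with the same V and J genes on both chains and the same CDR3 length existed for 258 WT (9.12%) and 763 KO (15.6%) unmutated single cells, and the nearest of these had at most 84.85% identity. The pair closest to the limit from outside is printed to show what the rule treats as unrelated; both KO cells used IGHV1-72, IGHJ1 and IGKV4-68 with IGKJ5, and capitals mark the bases that differ.
just outside, member: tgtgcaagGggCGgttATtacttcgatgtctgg
just outside, mate: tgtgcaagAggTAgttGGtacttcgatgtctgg

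The pair closest to the limit from inside, with 85.19% identity, counted as a clone of 2 and both its cells were left out. These WT cells used IGHV9-3, IGHJ2 and IGLV1, and capitals again mark the bases that differ.
just inside, cell 1: tgtgcaagaagAGgCCttgactactgg
just inside, cell 2: tgtgcaagaagGAgTTttgactactgg

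In both pairs the differing bases lay in the junction between V and J segments. Few cells stood this close to the limit: 58 WT (2.05%) and 162 KO (3.31%) had a nearest relative at 80 to 85% identity. In the clonotypes deposited by the authors, 97.8% of the 7731 cells were alone in their clonotype within their library.

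The receptors of these cells were diverse in both genotypes. The 2829 WT cells used 92 IGHV genes, 93 light V genes and 1711 heavy and light V pairs, and the 4902 KO cells used 87, 89 and 2216. The effective number of IGHV genes (the exponential of the Shannon entropy, unmatched for cell number) was 59.7 in WT and 53.1 in KO. The 10 most used IGHV genes held 36.2% of WT and 41.2% of KO cells. Heavy CDR3 lengths ran from 6 to 24 codons in both, with a median of 14. The 2 pools had 6 heavy chains with identical V, J and CDR3 nucleotides in common, of 2764 distinct ones in WT and 4795 in KO. Both of those that also had the same light V and J genes are printed as the only receptors held in common; capitals mark the bases between the stretches that match the usual V end and the J start.
shared by both pools 1: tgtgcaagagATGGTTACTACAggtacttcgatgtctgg
shared by both pools 2: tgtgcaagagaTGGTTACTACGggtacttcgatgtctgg

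The former used IGHV1-52 with IGKV3-2 and the latter IGHV1-55 with IGKV12-44, each joined to IGHJ1. The core stretch between V and J of these 2 chains is nearly the same.

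Receptor transcripts were more numerous in the KO cells. The median heavy-chain UMI count was 15, 15, 16 and 17 in WT and 38, 34, 38 and 34 in KO replicates 1 to 4. The groups did not overlap, and the KO mean of 36.0 ± 2.31 was 2.29 times the WT mean of 15.8 ± 0.96 (SD, n = 4 each; exact permutation p = 0.0286, the smallest that 70 assignments allow; Benjamini-Hochberg adjusted 0.0286). Median light-chain UMIs were 48, 47, 53 and 52 in WT and 71, 68, 70 and 62 in KO, again without overlap, a difference of 17.8 UMIs (exact permutation p = 0.0286, adjusted 0.0286). The heavy chain rose more than the light chain: the median ratio of heavy to light UMIs was 0.327 ± 0.0056 in WT and 0.551 ± 0.018 in KO. All 4 UMI measures were called at p under 0.05 (100% of 4), the fourth being the share of cells with 100 or more heavy UMIs. They were 1.45 to 2.65% of the WT and 7.16 to 12.3% of the KO cells. UMIs depend on the transcripts in a cell and on their capture, and these cannot be told apart here. Whole KO libraries also held more UMIs, 1066251 ± 124010 against 760729 ± 4226 in WT (SD, n = 4 each), from more paired cells.

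The KO excess of UMIs was shared by other IgM cells, but was small or absent in cells of other isotypes. With libraries pooled, switched cells had median heavy UMIs of 15 in WT and 19 in KO, and median light UMIs of 88 and 91. Cells labelled IgD (122 in WT, 27 in KO) had median heavy UMIs of 7 and 6 and light UMIs of 34 and 23. Unmutated IgM cells of clones of 2 or more (9176 in WT, 11889 in KO) had median heavy UMIs of 25.8 ± 0.96 in WT and 43.8 ± 2.06 in KO. IgM single-cell clones with IGHV mutations (1993 and 1799) had 21.8 ± 5.56 and 39.5 ± 2.38. Unmutated single cells had the lowest mean of the 3 IgM classes in both genotypes. They lay below the expanded unmutated cells in 8 of 8 libraries, with differences of -8.88 ± 1.73 heavy and -11.6 ± 3.58 light UMIs (exact sign-flip permutation over libraries, p = 0.00781 for each, the smallest that 256 assignments allow, adjusted 0.0112). Against mutated single cells the heavy difference was -4.75 ± 3.69 UMIs (exact sign-flip p = 0.0156, adjusted 0.0195), and it was no longer called without cells whose heavy chain was found on another barcode (-3.63, exact sign-flip p = 0.0625). Of 10 measures, 9 were called against the expanded cells (90%) and 8 against the mutated single cells (80%). The mutation measures among those 8 follow largely from the choice of classes by IGHV mutations.

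**Figure D2:**
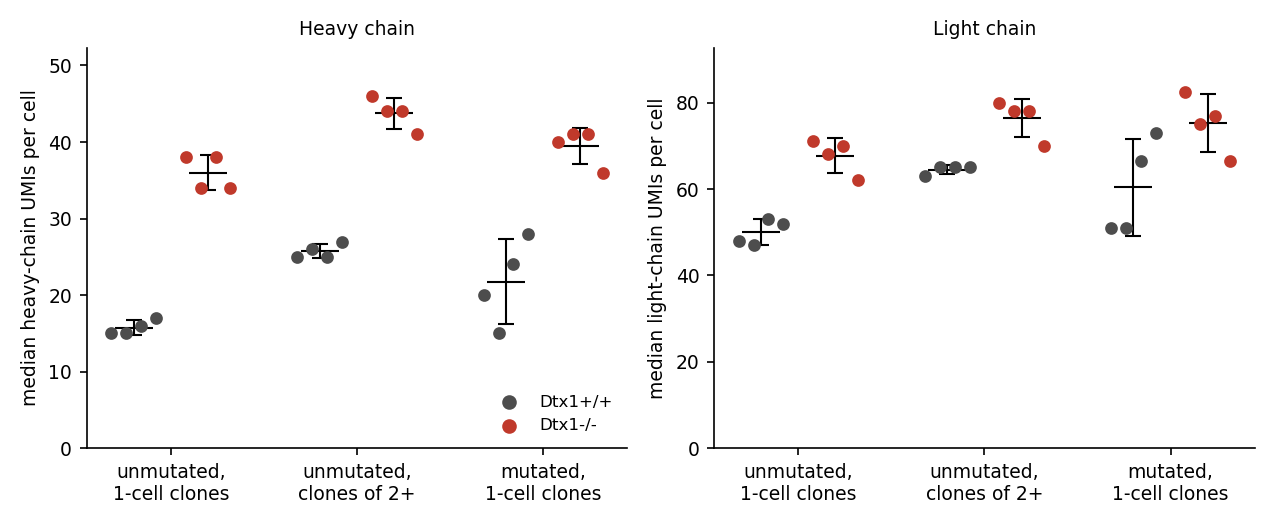
Median heavy-chain (left) and light-chain (right) UMIs per cell (y axes, from 0) in 3 classes of IgM cell, 1 point per library, with the mean and SD of 4 libraries per genotype. Unmutated 1-cell clones have the lowest mean in both genotypes, and KO libraries lie above WT libraries at 34 to 38 against 15 to 17 heavy UMIs.

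Some of the cells shared a heavy chain with a barcode that the clone rule did not join to them. Of 924 such cells, 522 shared it with a paired cell, which carried another light V or J gene. For 335 the other barcode had several heavy chains, for 156 it had 2 light chains and for 224 no light chain. Such barcodes were not paired cells and entered no clone, whatever their light chains. A cell can count in more than 1 of these groups. The same heavy V, J and CDR3 stood on another barcode of the genotype for 297 WT (10.5%) and 627 KO (12.8%) cells. These had fewer UMIs than the rest: the median heavy count was 4 against 16 in WT and 21 against 38 in KO, and the median light count 10 against 52 and 24 against 71. A light V mutation was present in 34% of them in WT and 12.1% in KO, against 4.61 and 4.74% of the rest. WT replicate 2 had the highest share, 16.6% (125 cells), against 5.92 to 14.9% in the other 7 libraries.

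Mutation outside the IGHV segment was not used in the choice and was rare. A light V mutation was found in 6.86, 11.9, 5.22 and 6.32% of cells in WT replicates 1 to 4 and in 6.31, 5.38, 4.79 and 6.26% in KO. The ranges overlapped, with WT replicate 2 highest, and the genotypes were not called apart (7.57 ± 2.94% against 5.68 ± 0.73%, exact permutation p = 0.229, adjusted 0.419). Without cells that shared a heavy chain the difference turned to 0.12 percentage points in favour of KO (4.63 and 4.75%). Most mutated light chains carried 1 or 2 changes: of 2788 WT cells with a light germline, 76 had 1 and 80 had 2, and of 4841 KO cells 139 and 74. Heavy framework 4, part of the J segment, was mutated in 0.610 ± 0.39% of WT and 0.392 ± 0.24% of KO cells. None of the 4 mutation measures was called (0% of 4; exact permutation p of at least 0.171).

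Against the other classes the light chain separated the cells in opposite directions. Light V mutations were more frequent than in expanded unmutated cells in 8 of 8 libraries (2.18 ± 0.26% in WT and 1.51 ± 0.37% in KO), by 4.78 ± 2.26 percentage points (exact sign-flip p = 0.00781, adjusted 0.0112). They were far less frequent than in mutated single cells, of which 64.2 ± 2.27% in WT and 51.3 ± 3.43% in KO had one (difference -51.1 ± 6.59 percentage points, exact sign-flip p = 0.00781, adjusted 0.0112). These 2 classes were set apart by IGHV mutations, and AID acts on both chains. The direction of that difference was thus largely set by the choice of cells, and its p-value adds no support. Of cells with a light germline, 2574 of 2788 in WT and 4566 of 4841 in KO had no light V mutation.

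CDR3 length differed slightly between genotypes. The mean heavy CDR3 was 14.1, 14.2, 14.2 and 14.2 codons in WT and 14.4, 14.4, 14.3 and 14.4 in KO replicates 1 to 4, and the libraries did not overlap (14.19 ± 0.051 and 14.36 ± 0.057, SD, n = 4; exact permutation p = 0.0286, adjusted 0.0762). CDR3s of 17 codons or more were 20.5 ± 0.19% of WT and 23.8 ± 1.74% of KO cells (exact permutation p = 0.0286, adjusted 0.0762). Light CDR3s were shorter in KO (difference -0.045 codons). These were 3 of 8 CDR3 measures (37.5%), and none passed the adjustment. The call of the mean length was lost without WT replicate 1 or 4 (0.151 and 0.165 codons, exact permutation p = 0.0571 each). That of 17 codons or more was lost without any 1 WT library (exact permutation p = 0.0571 each). The length difference was 0.036 codons (exact permutation p = 0.429) when clones were defined within each library, and was 0.193 codons and not called (exact permutation p = 0.257) among cells with 20 to 40 heavy UMIs. Short CDR3s, net charge, hydropathy, tyrosine content and the share with a D gene call were not called.

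The net charge of the heavy CDR3 loop, lysine and arginine less aspartate and glutamate, was lower in these cells than in expanded unmutated and mutated single IgM cells. It was -0.226 ± 0.067 in WT and -0.204 ± 0.027 in KO. In expanded unmutated cells it was -0.036 and -0.096, and in mutated single cells -0.0016 and -0.045. The charge was lower in the unmutated single cells in 8 of 8 libraries in each comparison, with differences of -0.149 ± 0.076 and -0.192 ± 0.050 charges (exact sign-flip p = 0.00781, adjusted 0.0112 for both). With libraries pooled, expanded clones of 2 to 4 cells had -0.163 in WT and -0.110 in KO. Those of 5 or more had -0.0096 and -0.089, with each cell of a clone counted. Cells labelled IgD (122 and 27) had -0.15 and -0.48, so a low charge was not particular to the unmutated single cells. The mean length differed from that of expanded cells by -0.126 ± 0.11 codons, in 7 of 8 libraries (exact sign-flip p = 0.0156, adjusted 0.0195), but turned to 0.065 codons with clones defined within a library. Length is itself part of the clone rule.

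No heavy or kappa J gene differed by the exact permutation test (0 of 8, 0%, before any adjustment), and 1 was called without shared heavy chains. IGHJ2 was used by 30.3 ± 1.60% of WT and 32.0 ± 0.48% of KO cells and IGHJ1 by 19.2 ± 2.19 and 17.2 ± 0.42% (exact permutation p = 0.0571, adjusted 0.229 for both). IGHJ3 and IGHJ4 held 23.8 and 26.8% in WT, and 23.4 and 27.4% in KO.

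Lambda light chains were less frequent in the KO cells. They were carried by 11.4, 11.8, 13.7 and 13.9% of cells in WT replicates 1 to 4 and by 4.67, 4.82, 4.49 and 5.15% in KO. Every KO library lay below every WT library, and the difference was -7.91 percentage points (12.7 ± 1.28% against 4.78 ± 0.28%, SD, n = 4; exact permutation p = 0.0286; adjusted over 22 light-class and V-group values 0.105, above 0.05). Of those 22 values, 6 were called (27.3%), and none passed the adjustment. IGLV1 (chromosome 16, 19085017 to 19085460) made up most lambda chains, at 8.94 ± 1.19% of WT and 3.35 ± 0.26% of KO cells. IGLV2 held 2.78 ± 0.60% and 1.06 ± 0.10%, and IGLV3 0.979 ± 0.36% and 0.365 ± 0.15%. The ratio of KO to WT was thus alike for the 3 lambda genes, at 0.375, 0.382 and 0.373, although IGLV3 overlapped between groups (exact permutation p = 0.0571; -0.79 points and p = 0.0286 without shared heavy chains) and IGLV2 lost its call when any KO library was left out.

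The same lambda chains recurred with different heavy chains in both genotypes, and the most common CDR3 of each gene is printed to show them; no base is marked.
IGLV1: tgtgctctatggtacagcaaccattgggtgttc
IGLV2: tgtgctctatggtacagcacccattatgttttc
IGLV3: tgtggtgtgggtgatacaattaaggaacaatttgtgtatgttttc

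The IGLV1 sequence stood in 115 of 251 WT and 68 of 164 KO IGLV1 cells, with 58 heavy V genes and 183 distinct heavy CDR3s, and at least 5 other IGLV1 CDR3s were each found in 20 or more cells. The IGLV2 sequence was found in 64 and 41 cells, and the IGLV3 sequence in 26 and 15. Each of the 183 IGLV1 cells had a heavy CDR3 of its own. The clone rule largely set this in advance, since cells with the same genes and similar CDR3s were left out.

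The lambda difference was present at matched counts from 5 to 99 heavy UMIs. Among cells with 5 to 19 heavy UMIs, 14.9% of 1432 WT and 5.14% of 1051 KO cells carried lambda. With 20 to 40 UMIs the shares were 13.7% of 791 and 5.46% of 1337, and the difference over libraries was -8.21 percentage points (exact permutation p = 0.0286). At the lowest counts, 1 to 4 UMIs, the shares were 4.36% and 3.99%, and at 100 or more they were 3.51% of 57 and 6.42% of 514. Cells that shared a heavy chain, which make up 52.0% of WT and 58.6% of KO cells with 1 to 4 UMIs, had 3.03% and 3.99% lambda.

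Lambda was enriched in the unmutated single cells relative to other IgM cells of the same libraries. Expanded unmutated cells had 5.49 ± 0.33% lambda in WT and 2.41 ± 0.079% in KO. Within that class the lower KO share was seen in clones of 5 or more cells (6.04% in WT and 2.03% in KO, libraries pooled) and not in clones of 2 to 4 (2.86 and 3.15%). Every cell of a clone counts in that class, so large clones weigh on its lambda share and on the comparison with it. Over all paired cells, IGHV9-3 with IGLV1 made 166 WT cells in 34 clones, the largest of 54. In KO it made 60 cells in 31 clones, the largest of 9. Mutated single cells had 3.68 ± 1.30% and 3.07 ± 0.34%. The unmutated single cells were higher in 8 of 8 libraries in both comparisons, by 4.79 ± 2.77 and 5.36 ± 4.25 percentage points (exact sign-flip p = 0.00781, adjusted 0.0112 for both). The enrichment was 7.21 ± 1.48 points over expanded cells in WT and 2.37 ± 0.24 in KO, a difference of -4.84 between genotypes (exact permutation p = 0.0286, adjusted 0.143). Over mutated single cells it was 9.01 ± 2.53 and 1.71 ± 0.26 points, a difference of -7.30 (exact permutation p = 0.0286, adjusted 0.0714). These differences between genotypes were called for 2 of 10 measures against expanded cells (20%) and for 4 of 10 against mutated single cells (40%). With clones defined within each library they were -1.43 and -4.09 points, still with an exact permutation p of 0.0286.

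**Figure D3:**
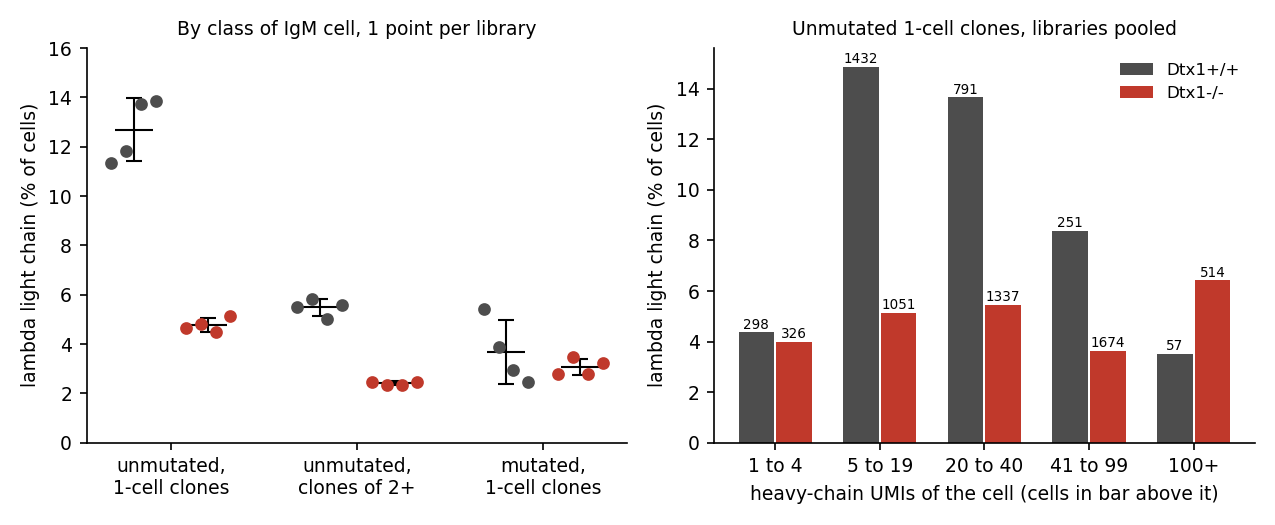
Left, lambda light chains (y axis, percent of cells) in 3 classes of IgM cell, 1 point per library with mean and SD of 4 libraries per genotype. Right, the same share in unmutated 1-cell clones by heavy-chain UMIs of the cell, libraries pooled, with the number of cells above each bar; WT exceeds KO from 5 to 99 UMIs, and KO exceeds WT at 100 or more, where WT has 57 cells.

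Markers of other cells that the sort could hold moved between the genotypes too, and their part in the lambda difference was not tested. Paired cells labelled IgD, the naive isotype partner of IgM, were 37, 20, 35 and 30 in WT and 12, 4, 10 and 1 in KO replicates 1 to 4, without overlap. They are not among the 7731 cells, since their contig is joined to IGHD. Of the 122 WT and 27 KO cells, 96.7% and 81.5% were unmutated and alone in their clone, with median heavy UMIs of 7 and 6, and 9 of 122 (7.38%) and 0 of 27 carried lambda. The B-1 genes IGHV11-2 and IGHV12-3, typical of innate-like B-1 cells, held 0.600 ± 0.12% of WT and 0.080 ± 0.11% of KO unmutated single cells (exact permutation p = 0.0286, adjusted 0.105). IGHV11-2 was found in 0 KO and 3 WT cells. The IGHV12-3 cells, 14 in WT and 4 in KO, had mean heavy CDR3s of 14.7 and 14 codons, against 14.2 and 14.4 for the whole class. The V gene alone does not show that these were B-1 cells. In other paired cells both genes went the other way: IGHV12-3 rose from 0.473 ± 0.11 to 1.59 ± 0.30% (edgeR adjusted p = 3.59e-08), and IGHV11-2 held 0% in WT and 0.215 ± 0.091% in KO. These shares count every cell of a clone. Over all paired cells, the 274 KO IGHV12-3 cells made 12 clones, the largest of 123 cells. The 89 WT cells made 19 clones, the largest of 48, so the number of clones under the rule did not rise in KO. The rule joins cells with the same genes and similar CDR3s whatever their origin, so it does not count founders. From shares, more cells of 1 origin and fewer of another cannot be told apart.

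Lambda pairing was uneven over heavy genes, and these genes were picked for their counts, with no test. With IGHV6-3, 28 of 71 WT cells (39.4%) and 7 of 50 KO cells (14%) carried lambda. IGHV6-3 cells outside the unmutated single class carried it in 2 of 85 WT and 1 of 140 KO cells. With IGHV1-64 the shares were 16.3% in WT and 3.08% in KO, with IGHV9-3 16.3% and 7.25%, and with IGHV1-81 10.6% and 1.83%. The lower KO share was therefore seen with each of these 4 genes.

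Use of IGHV genes was tested with edgeR's quasi-likelihood test on cell counts per library, with p adjusted by Benjamini-Hochberg. Of 59 IGHV genes with enough cells, 3 were called (5.08%), 2 higher (3.39%) and 1 lower (1.69%) in KO. At an unadjusted p under 0.05 there were 14, and the median log2 fold change of the 59 was -0.08. DESeq2 also called 3. Among all other paired cells of the same libraries 47 of 75 IGHV genes were called (62.7%), 31 higher (41.3%) and 16 lower (21.3%). There, expanded clones count many times. V genes whose shares did not overlap between WT and KO libraries numbered 12 of 59 (20.3%).

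IGHV1-81 (chromosome 12, 115920279 to 115920572) was the gene that rose most clearly. Its share of unmutated single cells was 4.49, 3.46, 2.8 and 3.89% in WT and 8.87, 8.67, 7.18 and 6.28% in KO replicates 1 to 4. All KO libraries lay above all WT libraries (3.66 ± 0.71% and 7.75 ± 1.24%, log2 fold change 1.08 ± 0.17, edgeR adjusted p = 0.000191). Its share in KO was 8.90, 5.42, 4.79, 9.98 and 12.6% among cells with 1 to 4, 5 to 19, 20 to 40, 41 to 99 and 100 or more heavy UMIs, against 5.71, 2.51, 4.17, 5.18 and 8.77% in WT. KO was above WT in each of the 5 ranges and closest to it at 20 to 40. Among cells with 20 to 40 heavy UMIs alone the log2 difference was 0.19 (adjusted p = 0.667), so the call depended on cells outside that window. It was 0.57 with clones defined within a library. The germline that defines an unmutated IGHV1-81 chain, found with 835 distinct CDR3s, is printed with CDR1 and CDR2 in capitals, since a cell had to match every base of it.
IGHV1-81 reference: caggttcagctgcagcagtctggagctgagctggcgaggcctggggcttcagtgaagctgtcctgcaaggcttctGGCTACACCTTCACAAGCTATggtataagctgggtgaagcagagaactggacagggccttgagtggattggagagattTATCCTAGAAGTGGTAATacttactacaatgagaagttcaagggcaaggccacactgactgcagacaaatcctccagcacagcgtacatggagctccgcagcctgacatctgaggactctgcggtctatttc

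In the rest of the repertoire IGHV1-81 went the other way. It made up 8.40 ± 0.49% of other paired cells in WT and 4.82 ± 0.33% in KO (log2 -0.80, edgeR adjusted p = 7.7e-10). The difference between the 2 log2 changes was 1.88 ± 0.17 (edgeR interaction, adjusted p = 2.08e-09). Clone size helped to define the 2 sets, and the other cells were counted per cell, so large clones weigh on this contrast. It therefore does not separate gene use from clone expansion. With libraries pooled, IGHV1-81 was also lower in KO among mutated IgM single-cell clones, at 8.33% in WT and 5.11% in KO. Among unmutated IgM cells it held 6.58 and 5.87% in clones of 2 to 4, and 7.90 and 4.12% in clones of 5 or more. How far the choice of cells without IGHV mutations shaped the rise of IGHV1-81 was not tested. In WT, 1438 IGHV1-81 cells fell into 499 clones, the largest of 102 cells, and 104 of them (7.23%) were unmutated single IgM cells. In KO, 1203 cells fell into 685 clones, the largest of 33, and 382 (31.8%) were unmutated single IgM cells. The median heavy UMI count of the KO IGHV1-81 cells was 52, against 36 for all KO cells of the class; in WT it was 19 against 16.

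IGHV6-3 (chromosome 12, 114391712 to 114392010) was the gene that fell. It held 2.91, 1.86, 3.10 and 2.18% of WT and 1.32, 1.28, 0.816 and 0.611% of KO cells, without overlap (2.51 ± 0.59% and 1.01 ± 0.35%, log2 -1.29 ± 0.26, edgeR adjusted p = 0.00209). In other paired cells it rose from 0.536 to 0.823% (log2 0.62, edgeR adjusted p = 0.00318), and the difference was -1.92 ± 0.31 (edgeR interaction, adjusted p = 5.28e-05). Its family, IGHV6, held 3.75 ± 0.52% of WT and 1.68 ± 0.37% of KO unmutated single cells.

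IGHV14-2 (chromosome 12, 113994469 to 113994898) held 0.396, 1.33, 1.18 and 1.09% of WT and 1.79, 2.09, 2.12 and 2.09% of KO cells. The libraries did not overlap (log2 1.02 ± 0.27, edgeR adjusted p = 0.0211). The call was lost without WT replicate 1 (0.74, adjusted p = 0.139), KO replicate 2 (1.00, 0.0533) or KO replicate 4 (1.00, 0.0532), and with clones defined by the heavy chain alone (0.89, 0.0814). The change was in the same direction in other paired cells, from 1.05 to 1.86% (log2 0.81).

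The other frequently used genes were not called in this fit, but calls of several depended on the setting. IGHV8-8, the most used, held 4.91 ± 0.87% of WT and 6.61 ± 0.63% of KO cells (log2 0.42, edgeR adjusted p = 0.0822). It was called with at least 5 heavy UMIs (0.44, edgeR adjusted p = 0.0452), without light V mutations (0.52, 0.0143), without shared heavy chains (0.54, 0.0186) and with the replicate block (0.42, 0.0451). IGHV9-3 held 4.58 and 5.66%, IGHV1-26 5.29 and 3.95% (log2 -0.41, edgeR adjusted p = 0.0822), and IGHV1-55 3.75 and 3.49%. IGHV1-26 was called lower with at least 5 heavy UMIs (-0.45, edgeR adjusted p = 0.0479) and without light V mutations (-0.51, 0.0209), but higher at 20 to 40 heavy UMIs (0.84, 0.0401). In that window, where 17 genes were tested, IGHV1-55 (1.56, edgeR adjusted p = 0.00302) and IGHV1-53 (1.41, 0.0121) were also called higher. IGHV1-64, IGHV1-9, IGHV8-12, IGHV1-53 and IGHV1-18 each held 2.07 to 3.47%, with log2 changes from -0.38 to 0.46. IGHV1-72, the heavy gene of the classical response to the hapten nitrophenyl, held 2.08 ± 0.67% and 2.29 ± 0.41%. IGHV1-9 held 3.10% of WT and 2.93% of KO unmutated single cells, against 8.51 and 5.30% of other paired cells.

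The KO against WT change differed between unmutated single cells and other cells for 21 of 76 IGHV genes (27.6%), higher for 7 (9.21%) and lower for 14 (18.4%). As for IGHV1-81, these contrasts include the expansion of clones among the other cells. After IGHV1-81 and IGHV6-3 the smallest p-values belonged to IGHV12-3 (-4.29 ± 0.74, edgeR interaction adjusted p = 9.74e-05), IGHV7-3 (-1.81 ± 0.32) and IGHV1-26 (-0.99 ± 0.19). IGHV12-3 held 0.50% of WT and 0.080% of KO unmutated single cells, and 0.473 and 1.59% of other cells (log2 1.74). Its 274 KO cells fell into 12 clones, the largest of 123 cells, and 4 of them were unmutated single IgM cells, against 14 of 89 in WT. IGHV7-3 held 1.51% of WT and 1.03% of KO unmutated single cells, while in other cells it rose from 0.492 to 1.17%. Only 13 IGHV genes were called when WT replicate 1 was left out, and 4 at 20 to 40 heavy UMIs.

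Use of IGKV genes among kappa cells did not differ by the test. None of 60 was called by edgeR (0%) or DESeq2, with 11 at an unadjusted p under 0.05. IGKV shares that did not overlap between genotypes numbered 6 of 60 (10%). The most used were IGKV10-96 (4.15 ± 0.90% of WT and 4.68 ± 0.47% of KO kappa cells), IGKV1-117 (4.04 and 4.14%), IGKV14-111 (3.65 and 3.94%), IGKV1-135 (3.14 and 3.97%), IGKV1-110 (3.15 and 2.99%) and IGKV6-15 (3.28 and 2.28%). In other paired cells 46 of 73 were called (63%), 29 higher (39.7%) and 17 lower (23.3%).

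The change between genotypes differed from that of other cells for 18 of 73 IGKV genes (24.7%), higher for 9 and lower for 9 (12.3% each). Expanded clones count many times among the other cells here too. IGKV1-135 (chromosome 6, 67609745 to 67610508) fell in other cells from 4.32 to 2.22%, and the difference was 1.30 ± 0.25 on the log2 scale (edgeR interaction, adjusted p = 1.54e-05). IGKV2-137 fell there from 9.14 to 5.38% against 2.00 and 2.59% in unmutated single cells (1.15 ± 0.26), and IGKV1-117 from 8.00 to 4.13% (0.98 ± 0.21). IGKV4-91 and IGKV4-50 had differences of -2.06 ± 0.42 and -2.79 ± 0.58. At 20 to 40 heavy UMIs edgeR called 0 of 56 IGKV genes in this comparison, with 12 at an unadjusted p under 0.05.

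**Figure D4:**
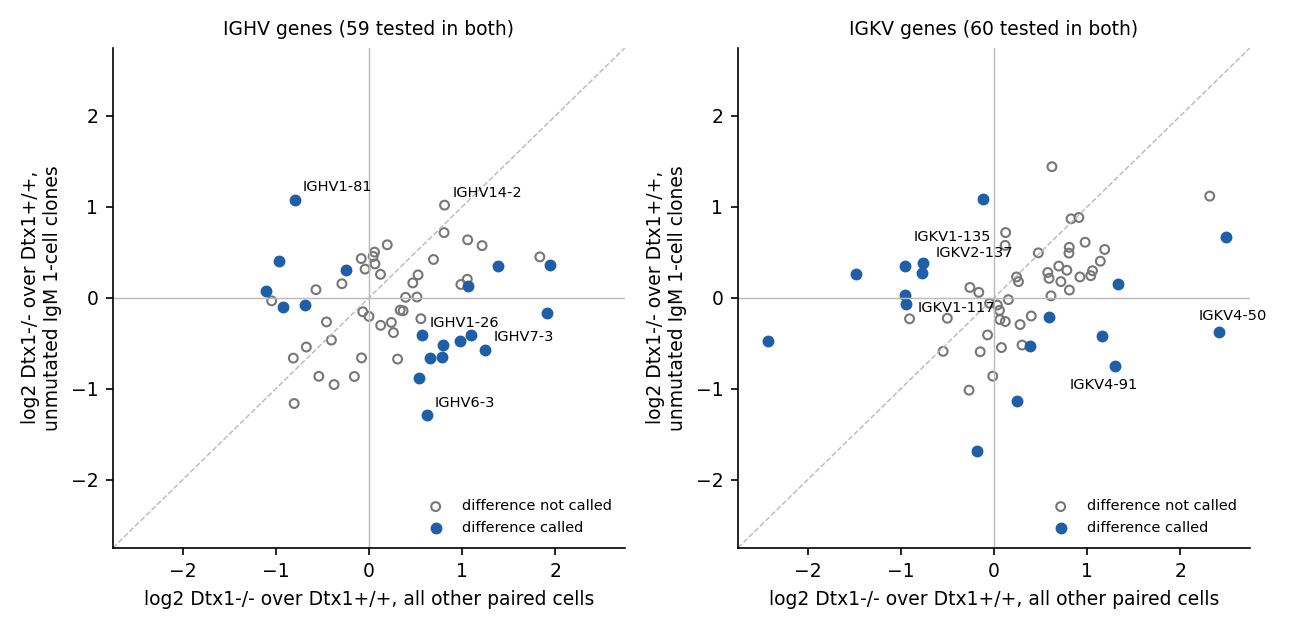
Log2 fold change of Dtx1-/- over Dtx1+/+ in unmutated IgM 1-cell clones (y axis) against that in all other paired cells (x axis), for 59 IGHV genes (left) and 60 IGKV genes (right) tested in both; filled points differ between the axes by the edgeR interaction test, and the dashed line marks equal change. IGHV1-81 lies at 1.08 on the y axis and -0.80 on the x axis, and IGHV6-3 at -1.29 and 0.62.

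IGKV6-13 stood apart in WT replicate 2, with 34 of the 42 WT cells (5.13% of kappa cells there against 0 to 0.723% in the other WT libraries). Of these 34, 25 had a heavy chain that was found on another barcode. Left out of the chi-square comparison of the 4 WT libraries, it moved the p of the IGKV counts from 6.5e-05 to 0.237.

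Heavy and light V genes were combined unevenly in KO cells. The pairs named here were chosen after their counts were seen, so no test is given. IGHV1-81 with IGKV1-135 was found in 3, 2, 0 and 1 unmutated single cells of WT and 20, 25, 16 and 12 of KO replicates 1 to 4. The 73 KO cells were 5.04 times the number that the product of the gene shares gives, and the 6 WT cells 2.12 times. IGHV1-81 with IGKV8-28 was found in 4 WT cells, all in replicate 4, and in 8, 9, 17 and 11 KO cells. IGHV1-59 with IGKV1-135 was found in 0 WT cells and in 4, 10, 4 and 7 KO cells. Every KO library held more of these cells than any WT library, but as a share of the class WT replicate 4 was level with KO replicate 1 for IGHV1-81 with IGKV8-28 (0.623% each).

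The clone rule left out cells with the same genes and similar CDR3s. Distinct junctions within a gene pair therefore follow largely from the choice of cells. The 73 KO cells of IGHV1-81 and IGKV1-135 had 72 distinct heavy CDR3s, 7 to 20 codons long and joined to 4 IGHJ genes. The cell with the most heavy UMIs in each KO library is printed as an example. Capitals mark the bases between the stretches matching the usual V end and the J start.
IGHV1-81 IGKV1-135 KO_1: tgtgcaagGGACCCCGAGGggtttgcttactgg
IGHV1-81 IGKV1-135 KO_2: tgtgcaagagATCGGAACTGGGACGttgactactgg
IGHV1-81 IGKV1-135 KO_3: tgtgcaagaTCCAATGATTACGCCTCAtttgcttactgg
IGHV1-81 IGKV1-135 KO_4: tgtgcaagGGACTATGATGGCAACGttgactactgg

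Their light chains recurred: the most common light CDR3 stood in 37 of the 73 cells.
IGHV1-81 IGKV1-135 light CDR3: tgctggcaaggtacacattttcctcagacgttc

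The 45 KO cells of IGHV1-81 and IGKV8-28 had 45 distinct heavy CDR3s of 8 to 19 codons, which again follows largely from the clone rule. Examples are shown in the same way, and 28 of the 45 cells had 1 light CDR3.
IGHV1-81 IGKV8-28 KO_1: tgtgcGGGAGGGTCtgcttactgg
IGHV1-81 IGKV8-28 KO_2: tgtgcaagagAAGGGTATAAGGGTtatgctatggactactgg
IGHV1-81 IGKV8-28 KO_3: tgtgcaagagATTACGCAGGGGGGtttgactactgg
IGHV1-81 IGKV8-28 KO_4: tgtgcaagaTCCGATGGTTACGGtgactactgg
IGHV1-81 IGKV8-28 light CDR3: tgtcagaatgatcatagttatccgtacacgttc

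The same gene pair was present in WT, but mainly in expanded clones. Of all paired cells, IGHV1-81 and IGKV1-135 made 447 WT cells in 63 clones, the largest of 102 cells, and 144 KO cells in 103 clones, the largest of 20. IGHV1-81 with IGKV8-28 made 8 cells in 7 clones in WT and 54 cells in 49 clones in KO. Median heavy UMIs of the KO cells were 51 and 54 for these 2 pairs.

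In WT the pair that stood out was IGHV6-3 with IGLV1, found in 5, 2, 8 and 8 WT and in 1, 2, 2 and 0 KO cells. The 23 WT cells had 23 distinct heavy CDR3s, which also follows largely from the clone rule. The cell with the most heavy UMIs per library is printed, with capitals as before.
IGHV6-3 IGLV1 WT_1: tgcacaggcAACTACGGGttcgatgtctgg
IGHV6-3 IGLV1 WT_2: tgcacaggGGTTtactactttgactactgg
IGHV6-3 IGLV1 WT_3: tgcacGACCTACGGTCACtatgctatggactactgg
IGHV6-3 IGLV1 WT_4: tgcacaggACTCTTTtttgactactgg

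Nearly every paired WT cell with these genes belonged to the class: 25 cells made 24 clones, the largest of 2. Other pairs were used in both genotypes. IGHV8-12 with IGKV12-44 was found in 8 WT and 20 KO cells, IGHV1-4 with IGKV14-111 in 10 and 18, IGHV1-71 with IGKV2-137 in 8 and 16, and IGHV1-62-2 with IGKV2-137 in 8 and 14. The last 2 exceeded the product of the gene shares by 14.4 and 17.8 times in WT and by 16.2 and 12.9 times in KO.

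**Figure D5:**
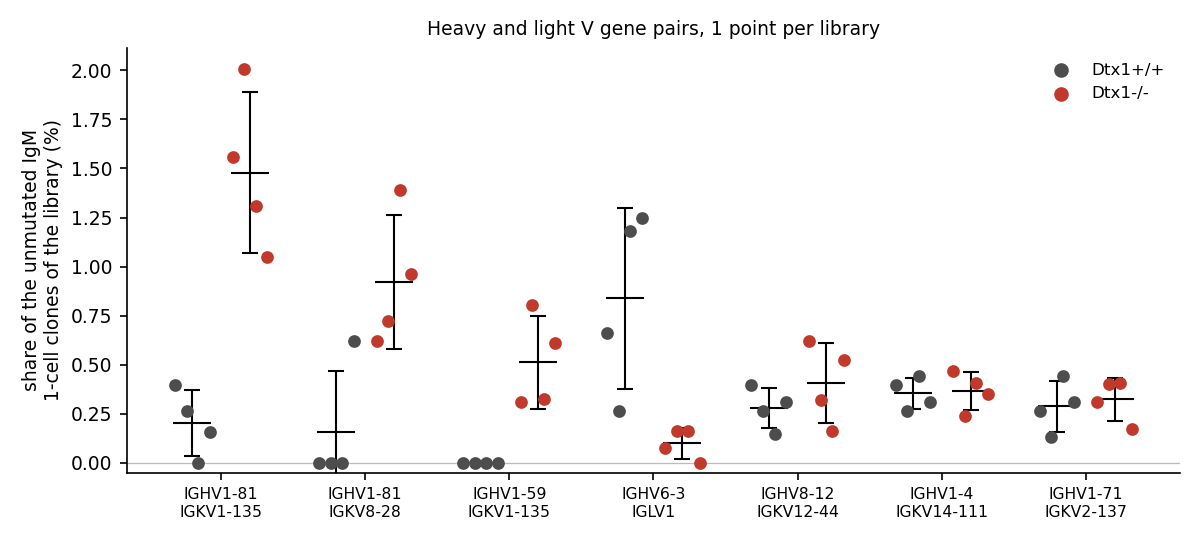
Share of 7 heavy and light V gene pairs among the unmutated IgM 1-cell clones of a library (y axis, percent), 1 point per library with mean and SD of 4 libraries per genotype; pairs were chosen after their counts were seen. IGHV1-81 with IGKV1-135 spans 1.05 to 2.01% in KO libraries against 0 to 0.396% in WT, and the 3 pairs on the right overlap between genotypes.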

How the data were processed

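Receptor contigs of 4 WT and 4 KO libraries were analysed. Each deposited table holds, per the file headers, whole-number counts of reads and UMIs per contig, gene calls and region sequences, with no normalization. Cell Ranger (version not given in the sources used here), R 4.3.1 and the build mm10 are named in the submitters' processing notes. Coordinates come from a RefSeq table of GRCm38.p6, in which 189 of 189 V genes matched; printed sequences come from the deposited tables.

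The unmutated single cells and the lists of genes were chosen with earlier results of these data known. Cells with several heavy or light chains were left out, and no doublet caller was run. Single values were compared with exact two-sided permutation tests over 70 assignments of libraries (classes: sign-flips over 256), called below 0.05, with Benjamini-Hochberg adjustment inside each family. The quasi-likelihood test of edgeR 4.0.16 (R 4.3.3), tested on simulated data, was run on cells per V gene; the library size was the number of cells of the class, and genes with few cells were filtered. DESeq2 1.42.0 was an alternative. Python 3.11.15 was used with matplotlib 3.10.9, SciPy 1.17.1, NumPy 2.4.6 and pandas 2.3.3. Named are the 10 most used IGHV and 6 most used IGKV genes, up to 10 and 8 called ones, up to 5 interaction genes per chain, all J genes and fixed groups; IGHV1-59, IGKV8-28, IGKV12-44, IGKV6-13 and the pairs were named after their values were seen. Alternatives changed the germline, clone rule, UMI range, light-chain criteria, normalization, filter, tool and libraries. Leaving out cells whose heavy chain stood on another barcode, and the permutation of genotype over within-library differences, were chosen after seeing the data. The replicate numbers were not taken to pair libraries: same-numbered libraries correlated by 0.120, 0.232, 0.0695 and 0.0624 in their IGHV deviations (38 genes).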

Additional observations from a re-analysis of the deposited data

Results flagged for a closer look

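Libraries that stood apart from the other 3 of their group were found in 5 of 94 groups of 4, and chance flags about 1 in 20 groups. IGHV8-8 held 7.55% of the unmutated single cells in KO replicate 1 against 6.20 to 6.42% in the other KO libraries. IGHV14-2 held 1.79% in KO replicate 1 against 2.09 to 2.12%. IGHV1-18 held 3.69% in WT replicate 3 against 2.11 to 2.26%, and IGHV1-59 held 1.59% in WT replicate 1 against 0.779 to 0.885%. IGKV6-13 held 5.13% of kappa cells in WT replicate 2 against 0 to 0.723%.

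Differences between the genotypes in how the unmutated single cells compared with another class of the same library were tested by permuting the genotype. Against expanded unmutated cells they were 5.75 light UMIs and -4.84 percentage points of lambda. Against mutated single cells they were 11.04 percentage points of cells with a light V mutation, 0.151 in light V mutation frequency (percent of bases), 0.314 codons of CDR3 length and -7.30 percentage points of lambda. Each had an exact permutation p of 0.0286, and none passed the adjustment (0.0714 to 0.143).

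The KO against WT change differed between unmutated single cells and other paired cells for 21 IGHV and 18 IGKV genes by edgeR's interaction test. Clone size helped to define the 2 sets, so these contrasts do not separate gene use from clone expansion. The log2 differences of the named genes were 1.88 for IGHV1-81, -1.92 for IGHV6-3, -4.29 for IGHV12-3, -1.81 for IGHV7-3 and -0.99 for IGHV1-26. For the kappa genes they were 1.30 for IGKV1-135, 0.98 for IGKV1-117, 1.15 for IGKV2-137, -2.06 for IGKV4-91 and -2.79 for IGKV4-50.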

How the results depend on the processing

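Over 76 results and 1440 recomputed values, 1297 kept their direction and their side of the threshold (or stayed within the spread), 51 lost a call, 17 gained one, 46 moved and 29 changed sign. No paired reading is made of the replicate numbers. With the replicate block, single values cannot pass the threshold (smallest possible exact sign-flip p 0.125), so differences of 20.25 heavy UMIs, 17.8 light UMIs, 0.172 codons and -7.91 points of lambda lost their call by construction; edgeR with the block called 4 IGHV genes, 3 of them shared, and 0 IGKV genes.

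The share of the unmutated single cells, 15.1% in WT and 22.4% in KO, followed the clone rule: 12.7 and 17.5% with clones by the heavy chain only, 22.5 and 36.5% with clones within 1 library, and in KO 21.7 and 23.2% at identities of 0.80 and 0.90. It was 13.5 and 20.9% with at least 5 heavy UMIs, 13.8 and 20.9% without light V mutations, 13.5 and 19.5% without shared heavy chains, and 23.7% in KO at equal pool size. The KO minus WT share with a light V mutation was -2.17 points (called) with clones within 1 library, turned to 0.029 with at least 5 heavy UMIs and to 0.12 without shared heavy chains, and ran from -2.66 to -0.45 with 1 library left out (called without WT replicate 3). CDR3 length lost its call with clones by the heavy chain only (0.161 codons), within 1 library (0.036) and at 20 to 40 heavy UMIs (0.193), and ran from 0.151 to 0.197 with 1 library left out (not called without WT replicate 1 or 4). Its difference from expanded cells turned to 0.065 with clones within 1 library, and the heavy UMI difference from mutated single cells was -3.63, not called, without shared heavy chains.

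Mutation values went from 0 to 1 with clones within 1 library and with at least 5 UMIs, and to between 0 and 2 with 1 library left out. CDR3 values went from 3 to 1 at 20 to 40 UMIs, and to between 1 and 3 with 1 library left out. J genes went from 0 to 1 at identity 0.90, with clones within 1 library, at least 5 UMIs, no light V mutation and no shared heavy chain, and to 0 or 1 with 1 library left out. Light-class and V-group values went from 6 to 11 at 20 to 40 UMIs. Differences between genotypes against expanded cells went from 2 to 4 with clones within 1 library, and to between 1 and 3 with 1 library left out.

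IGHV calls went from 3 to 6 with clones within 1 library, 7 with at least 5 UMIs, 7 at 20 to 40 UMIs (17 genes tested, 1 call shared), 8 without light V mutations and 5 without shared heavy chains, and to between 2 and 5 with 1 library left out. IGKV calls went from 0 to 1 at identity 0.90, 1 with clones by the heavy chain only, 4 within 1 library and 1 without a filter, and to between 0 and 3 with 1 library left out. Interaction calls went from 21 to 4 IGHV and from 18 to 0 IGKV genes at 20 to 40 UMIs, and to between 13 and 23 IGHV genes with 1 library left out. At 20 to 40 UMIs the log2 change turned to -0.06 for IGHV8-8, -0.75 for IGHV9-3, 0.84 for IGHV1-26, 1.56 for IGHV1-55, 0.39 for IGHV1-18 and 0.35 for IGKV1-110, the IGHV8 family to -0.13 points, and the IGHV1-26 interaction to 0.035. Changes near 0 changed sign: IGHV1-9 to 0.077 with clones by the heavy chain only, 0.083 with at least 5 UMIs and 0.14 at 20 to 40, and from -0.19 to 0.033 with 1 library left out; IGHV1-53 to -0.0073 with clones by the heavy chain only. IGKV1-117 turned to -0.038 at identity 0.80, -0.11 with clones within 1 library, -0.056 with at least 5 UMIs, -0.029 at 20 to 40, -0.085 without light V mutations and -0.060 with DESeq2, and ran from -0.12 to 0.25 with 1 library left out. IGKV1-110 turned to 0.082 with clones by the heavy chain only and 0.038 with at least 5 UMIs, and ran from -0.18 to 0.046 with 1 library left out. Other causes of these moves were not tested. The window of 20 to 40 UMIs lies above the WT median and includes the KO median and holds 791 WT and 1337 KO cells. The number of cells, 642 to 1285 per library, limits the precision of gene shares: 3 cells are 0.234 to 0.467% of a library's class.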

Other observations

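Heavy CDR3 length varied with the IGHV gene. IGHV1-81 unmutated single cells had a mean heavy CDR3 of 14.5 codons in WT and 13.6 in KO, while all unmutated single cells had 14.2 and 14.4. Those of IGHV6-3 had 11.9 and 12.2 codons. The switched cells of the same libraries, 1387 in WT and 1458 in KO, carried lambda in 2.52 and 3.36%, so the lower lambda share of KO was not seen among them; this was not tested.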
